A study of Mus musculus with 32 samples.

Results

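Acnat1, Acnat2, Baat and Slc27a5 are the 4 genes described here, of 20076 genes in the deposited count table. They were taken by name, as the enzymes that join acyl groups or bile acids to amino acids and the enzyme that prepares bile acids for this step, with results of these data already known: Acnat2 was selected on its lower level in MCAD-KO than in wild-type (WT) mice in the high-fat fed condition. That one contrast is therefore given below as a description without a test. The samples, all labelled liver, came from 32 male C57BL/6J mice, either WT or Acadm-knockout (MCAD-KO, below KO, lacking medium-chain acyl-CoA dehydrogenase throughout the body). The mice received a low-fat (LF) or a high-fat (HF) diet for 6 weeks and were killed fed or after a fast of 16 h, which makes 8 groups of 4 mice. Their ages are labelled 7.5 to 16, without a unit. RNA was extracted from crushed freeze-clamped liver and sequenced from the 3′ end, with 2031053 to 4292200 reads counted on genes per mouse.

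Bile acids leave the hepatocyte mostly as conjugates with an amino acid, which in mice is mainly taurine. Slc27a5 encodes the bile acid-CoA ligase (also a very long-chain fatty acid transport protein), and Baat encodes bile acid-CoA:amino acid N-acyltransferase, which transfers the activated bile acid to taurine or glycine, largely in peroxisomes. Acnat1 encodes a peroxisomal relative of Baat that joins long-chain fatty acids from their CoA esters to taurine, and Acnat2 is its close paralog; both release free CoA.

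Acadm, the deleted gene, had 8.98 to 37.1 CPM (counts per 1000000 reads counted on genes, scaled by edgeR's TMM factors) in the 16 KO mice and 190 to 748 CPM in the 16 WT mice. A list of 10 hepatocyte genes, of which 9 are in the table, summed to between 40422 and 65695 CPM in 30 of the mice. In KO HF fasted replicate 4 it summed to 799 CPM, against 38775 CPM for 12 heart genes, which reached at most 377 CPM in the 30 mice; that library held 0 counts of Acnat1, 0 of Acnat2, 33 of Baat and 32 of Slc27a5. In WT LF fed replicate 2 the hepatocyte list summed to 30753 CPM and a list of 6 bile duct genes to 336 CPM, against 48.9 to 96.8 CPM in the 30 mice. These 2 mice were left out, so that the WT LF fed and KO HF fasted groups held 3 mice each. Among the 30 mice, 11 acinar pancreas genes summed to 17472 CPM in WT HF fasted replicate 2 and 2560 CPM in KO HF fed replicate 1, and to at most 57.5 CPM in the others. A list of 6 adrenal cortex genes summed to 169 and 74.3 CPM in KO LF fasted replicates 3 and 4, to 35.8 CPM in WT HF fasted replicate 3 and 35.6 CPM in KO HF fed replicate 1, and to at most 5.41 CPM in the others. The part of these genes in the results was not tested; values without the libraries that held them are given below. In liver tissue, fewer hepatocytes and less RNA per hepatocyte cannot be told apart.

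The Acnat genes and Baat lie next to each other on the minus strand of chromosome 4 of GRCm38: Acnat2 (ENSMUSG00000060317) at chr4:49379840-49408151, Acnat1 (ENSMUSG00000070985) at chr4:49447105-49473912 and Baat (ENSMUSG00000039653) at chr4:49489422-49506557. Slc27a5 (ENSMUSG00000030382) lies apart, at chr7:12988346-12998192, also on the minus strand. The coding sequences of Acnat1 and Acnat2 were identical at 1203 of 1251 aligned bases (96.16%), while Baat shared 61.62% with Acnat1 and 61.02% with Acnat2. Their last 63 coding bases, read from GRCm38 on the minus strand with the last codons before the stop in capitals, are shown because the peroxisomal targeting signal is encoded there and because the Acnat paralogs do not differ in this stretch.
Acnat1 (chr4:49447329-49447391): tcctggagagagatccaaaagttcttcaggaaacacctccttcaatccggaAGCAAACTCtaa
Acnat2 (chr4:49380114-49380176): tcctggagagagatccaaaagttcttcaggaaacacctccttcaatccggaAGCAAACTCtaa
Baat (chr4:49489820-49489882): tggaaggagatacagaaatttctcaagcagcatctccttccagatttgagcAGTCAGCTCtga

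This likeness bears on how far the counts of the paralogs are separate. Libraries of this kind begin near the end of the transcript, and reads were 50 bases long. Of the 451 windows of 50 bases in the last 500 bases of the longest coding transcript, 97 (21.5%) occurred letter for letter in the other Acnat gene, and 68.1% of the Acnat1 windows and 72.1% of the Acnat2 windows differed from it by 2 bases or more. The windows of Baat and Slc27a5 occurred in no other gene (0 of 451 each). Where in the transcripts the reads began was not known from the counts, so some reads of one Acnat gene may have been counted on the other or dropped. A pseudogene on the opposite strand inside Acnat2, Gm12451 (chr4:49396112-49407732), was not among the counted genes, and whether counting used the strand is not given in the sources used here.

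**Figure D1:**
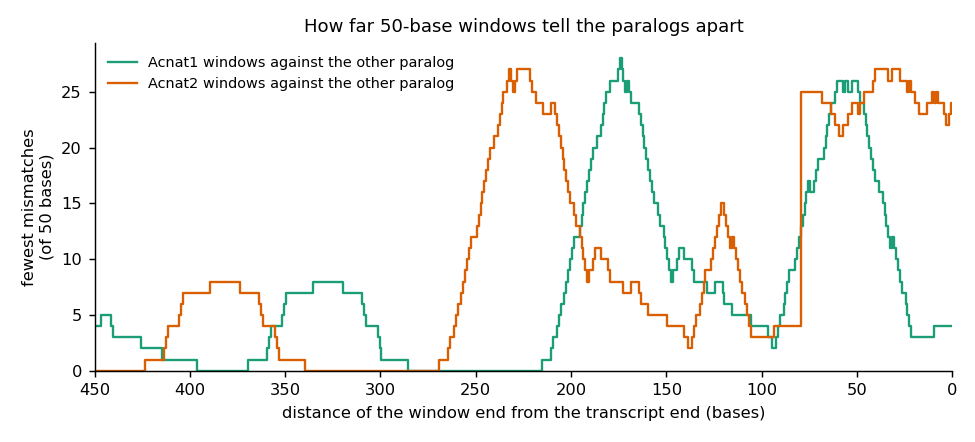
Each 50-base window in the last 500 bases of the longest coding transcripts of Acnat1 and Acnat2 (x axis, distance of the window's end from the transcript end in bases) against the fewest mismatches to any stretch of the other paralog (y axis, of 50 bases). Stretches at 0, 97 of 451 windows in each gene, cannot be told apart; the windows nearest the transcript end differ in both genes.

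Promoter windows of the paralogs were read as well. RefSeq's promoter table (GRCm38.p6, 250 bases before to 50 after a start, 32851 promoters) held 1 promoter of Acnat1 and 2 of Acnat2. The one of Acnat1 lies inside the gene as GENCODE draws it, downstream of its outermost start. The windows of the paralogs are therefore not matched in position, and differences between them cannot show that the paralogs' starts differ. The promoter windows are shown because only Acnat2 was called for diet in fed mice (below). A link between the windows and this response was not tested. Capitals mark the letters CCAAT on the strand shown; both strands were searched, and 37.4% of all promoters in the table hold this motif on either strand.
Acnat1 (chr4:49451060-49451359, minus strand): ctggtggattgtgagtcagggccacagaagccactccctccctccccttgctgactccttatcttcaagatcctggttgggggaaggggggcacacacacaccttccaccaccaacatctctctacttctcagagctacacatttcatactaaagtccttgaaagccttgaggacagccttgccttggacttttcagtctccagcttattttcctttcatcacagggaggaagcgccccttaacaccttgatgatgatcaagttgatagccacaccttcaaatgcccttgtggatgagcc
Acnat2 (chr4:49408102-49408401, minus strand): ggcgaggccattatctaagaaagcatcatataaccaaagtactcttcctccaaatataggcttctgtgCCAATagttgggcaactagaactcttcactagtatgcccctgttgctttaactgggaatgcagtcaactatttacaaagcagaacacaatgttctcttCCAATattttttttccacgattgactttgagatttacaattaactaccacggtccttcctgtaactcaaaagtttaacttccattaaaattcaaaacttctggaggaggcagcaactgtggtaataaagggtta
The first Acnat2 promoter held CCAAT at -182 and -84 from the start, the second (chr4:49405709-49406008) held it once at -234 on the other strand, and that of Acnat1 had no match. The longest run of bases shared by an Acnat1 and an Acnat2 promoter was 7. The core motif of nuclear receptors, AGGTCA, which 16.3% of all promoters hold, was in none of the 3 windows, and neither was its direct repeat with a spacer of 1 base (DR1), which 0.0396% hold and which contains it. The TATA box letters TATAAA, found in 13.6% of all promoters, were also in none. The E-box letters CACGTG, found in 7.15%, were in none either. The AP-1 letters TGACTCA, in 5.2% of all promoters, occurred once in the Acnat1 promoter on the other strand, at -239. A match in these letters is a description and not a binding site.

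Averaged over genotype, Acnat2 was called for diet in fed mice, for fasting on LF and for the difference between the fasting effects. The first and the last use the HF fed mice by which the gene was picked. In LF fed mice its level was low: 7.93, 13.7 and 18.7 CPM in the 3 WT mice and 18.6, 19.0, 6.52 and 22.2 CPM in the 4 KO mice. In HF fed mice it was 55.6, 72.5, 67.0 and 64.7 CPM in WT and 13.3, 32.3, 32.7 and 15.1 CPM in KO. All 4 WT HF fed mice lay above all LF fed mice, whereas the KO HF fed mice overlapped with them. Averaged over genotype, Acnat2 was 2.62-fold higher in HF fed than in LF fed mice (log2 fold change 1.39 ± 0.25 SE, adjusted p = 0.00453, quasi-likelihood F test of edgeR, Benjamini-Hochberg adjusted over 11566 genes). Of all genes tested, 0.268% passed this test at an adjusted p below 0.05, and of the 4 members only Acnat2 did. Averaging separates this contrast from the KO to WT difference that picked the gene only if both genotypes vary alike. In HF fed mice the mean ± SD was 23.4 ± 10.6 CPM in KO and 65.0 ± 7.03 CPM in WT, so the diet test is not free of that choice. The same HF fed mice enter the fasting effect on HF and the difference between diets below. By their run names the libraries were sequenced 16 to a lane (7 or 8), more than the pool size in the study's methods, so a lane may hold more than 1 pool. Within lane 8, which held 1 WT HF fed mouse, the log2 difference was 1.50 ± 0.41 and was not called. Lane 7 held no WT LF fed mouse, and with lane as a term the difference was 1.31 ± 0.25 (edgeR adjusted p = 0.0142). With all 32 mice, the heart-like library included, it was 1.37 ± 0.40 with an edgeR adjusted p of 0.394.

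As a description of the contrast that picked the gene, the 4 KO HF fed mice averaged 23.4 ± 10.6 CPM of Acnat2 (SD) and the 4 WT HF fed mice 65.0 ± 7.03 CPM, 2.78 times as much. The highest KO mouse had 32.7 CPM and the lowest WT mouse 55.6 CPM. The means of the other members in the same mice were 3.53 CPM in KO and 5.10 CPM in WT for Acnat1, 228 and 258 CPM for Baat and 535 and 540 CPM for Slc27a5, and the mice of both genotypes overlapped in each of these genes. By genotype, the mean of Acnat2 in HF fed over LF fed mice was 4.83 in WT and 1.41 in KO; since this difference contains the contrast that picked the gene, it was not tested.

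**Figure D2:**
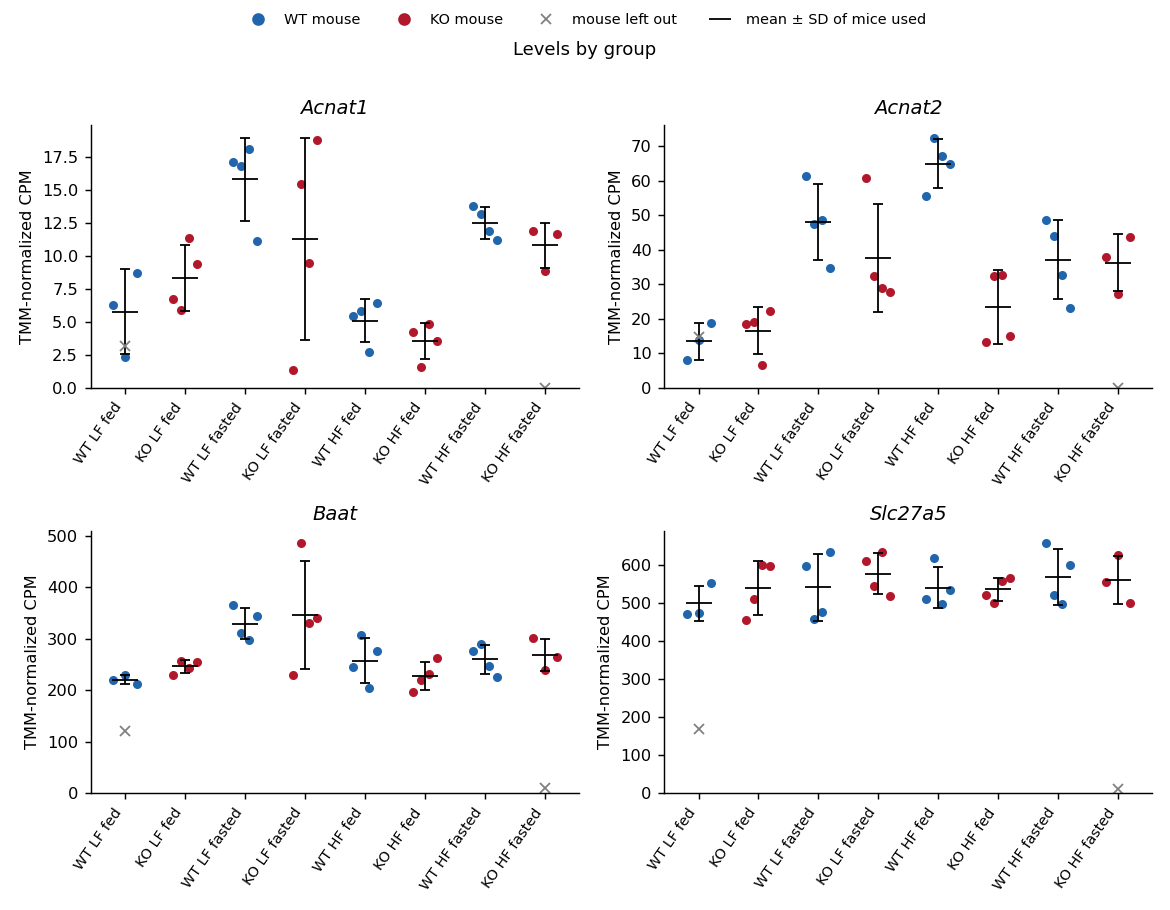
TMM-normalized CPM (linear axes from 0) of the 4 genes in each mouse (points; blue WT, red KO), with the mean ± SD of the mice used (3 or 4 per group) and the 2 mice left out as grey crosses. Acnat2 in the WT HF fed mice (55.6 to 72.5 CPM) lies above every fed mouse of the other groups, Acnat1 is higher in most fasted mice, and Slc27a5 stays within 455 to 657 CPM in the 30 mice.

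With fasting, Acnat2 rose on LF, while on HF no change was detectable in the average over genotype. In LF fasted mice it was 61.5, 47.3, 48.7 and 34.7 CPM in WT and 60.9, 32.4, 29.0 and 27.8 CPM in KO. Every LF fasted mouse of either genotype lay above every LF fed mouse. The rise was 2.85-fold (log2 fold change 1.51 ± 0.25, edgeR adjusted p = 3.21e-05), in a comparison in which 19.4% of all genes passed the test. In HF fasted mice Acnat2 was 48.7, 44.0, 32.6 and 23.1 CPM in WT and 38.0, 27.2 and 43.6 CPM in KO. These levels lay below all 4 WT HF fed mice and overlapped with the KO HF fed mice. Averaged over genotype, fasting on HF gave a log2 fold change of -0.08 ± 0.23 (edgeR adjusted p = 0.954). This average joins a lower and a higher mean: HF fasted over HF fed was 0.571 in WT, without overlap, and 1.55 in KO, with overlap. That difference between genotypes contains the contrast that picked the gene and was not tested. The difference between the fasting effects on HF and LF was -1.59 ± 0.34 on the log2 scale (edgeR adjusted p = 0.00899; 2.46% of all genes passed). Within lane 8 the rise on LF was 1.28 ± 0.43 and the difference between diets -1.45 ± 0.63, and neither was called. These lane 8 values rest on 1 KO LF fasted, 1 WT HF fed and 1 KO HF fasted mouse. With lane as a term they were 1.41 ± 0.26 (edgeR adjusted p = 0.000129) and -1.49 ± 0.35 (edgeR adjusted p = 0.0171). With all 32 mice the difference between diets was -1.78 ± 0.55 (edgeR adjusted p = 0.180). Without the libraries that held acinar pancreas genes, the diet effect in fed mice was 1.48 ± 0.25, the rise on LF 1.51 ± 0.24 and the difference between diets -1.73 ± 0.34, with edgeR adjusted p-values of 0.00240, 2.20e-05 and 0.00665. Without the 4 libraries with adrenal genes they were 1.48 ± 0.25, 1.66 ± 0.26 and -1.81 ± 0.35 (edgeR adjusted p = 0.00258, 2.60e-05 and 0.00622).

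In order of the group means, Acnat2 was highest in WT HF fed mice (65.0 ± 7.03 CPM, SD), followed by WT LF fasted (48.1 ± 11.0), KO LF fasted (37.5 ± 15.7), WT HF fasted (37.1 ± 11.5), KO HF fasted (36.3 ± 8.31), KO HF fed (23.4 ± 10.6), KO LF fed (16.6 ± 6.89) and WT LF fed mice (13.5 ± 5.39). The mice of each pair of neighbours in this order overlapped. In the HF fasted and LF fasted mice the level did not differ detectably by diet (log2 fold change of HF over LF -0.20 ± 0.23, edgeR adjusted p = 0.732; 6.65% of all genes passed).

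Acnat1 rose with fasting on both diets and, averaged over genotype, showed no detectable response to diet. It was counted with few reads, 3 to 60 per mouse. In LF fed mice it was 6.25, 2.35 and 8.71 CPM in WT and 6.73, 5.90, 11.3 and 9.39 CPM in KO; in LF fasted mice it was 17.1, 16.8, 18.1 and 11.1 CPM in WT and 1.32, 15.5, 9.49 and 18.8 CPM in KO. The WT mice of these groups were apart, and the KO mice overlapped, as KO LF fasted replicates 1 (3 counts) and 3 lay below KO LF fed replicate 3. The rise on LF was 1.92-fold (log2 fold change 0.94 ± 0.30, edgeR adjusted p = 0.0235). It rested on single mice: the edgeR adjusted p was 0.0979 without WT LF fed replicate 3, 0.0780 without KO LF fasted replicate 4 and 0.0583 without KO LF fasted replicate 2, with log2 fold changes of 0.76, 0.77 and 0.84, and 0.0969 with all 32 mice. The call was also lost in limma voom (0.81 ± 0.34, adjusted p = 0.0950) and without the 4 libraries with adrenal genes, 2 of them from the KO LF fasted group (0.76 ± 0.34, edgeR adjusted p = 0.126). Within lane 8, which held 1 KO LF fasted mouse, it was 1.08 ± 0.35.

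On HF, Acnat1 was 5.44, 5.86, 2.68 and 6.40 CPM in WT fed mice and 4.19, 1.60, 4.81 and 3.53 CPM in KO fed mice. After fasting it was 13.8, 13.2, 11.9 and 11.2 CPM in WT and 11.9, 8.85 and 11.6 CPM in KO. Every HF fasted mouse lay above every HF fed mouse, a 2.72-fold rise (log2 fold change 1.44 ± 0.31, edgeR adjusted p = 0.00492), where 2.62% of all genes passed the test. Within lanes it was 1.67 ± 0.46 on lane 7 (edgeR adjusted p = 0.366) and 1.16 ± 0.43 on lane 8, where it was not called. That lane 8 value rests on 1 WT HF fed and 1 KO HF fasted mouse. With lane as a term it was 1.45 ± 0.31 (edgeR adjusted p = 0.00457). With all 32 mice it was 1.24 ± 0.43 (edgeR adjusted p = 0.204). The fasting effects on the 2 diets differed by 0.50 ± 0.44 on the log2 scale (edgeR adjusted p = 0.713). Diet gave a log2 fold change of HF over LF of -0.71 ± 0.33 in fed mice (unadjusted p = 0.0368, edgeR adjusted p = 0.493) and of -0.21 ± 0.29 in fasted mice (edgeR adjusted p = 0.796). By genotype, the mean of Acnat1 in HF fed over LF fed mice was 0.883 in WT, with overlap, and 0.423 in KO. All KO HF fed mice lay below all KO LF fed mice. The diet effect within each genotype was not tested.

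The group means of Acnat1, from high to low, were 15.8 ± 3.16 CPM (SD) in WT LF fasted, 12.5 ± 1.18 in WT HF fasted, 11.3 ± 7.66 in KO LF fasted, 10.8 ± 1.70 in KO HF fasted, 8.34 ± 2.49 in KO LF fed, 5.77 ± 3.21 in WT LF fed, 5.10 ± 1.66 in WT HF fed and 3.53 ± 1.39 in KO HF fed mice. The 4 fasted groups thus headed the order, and the mice of neighbouring groups overlapped throughout.

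**Figure D3:**
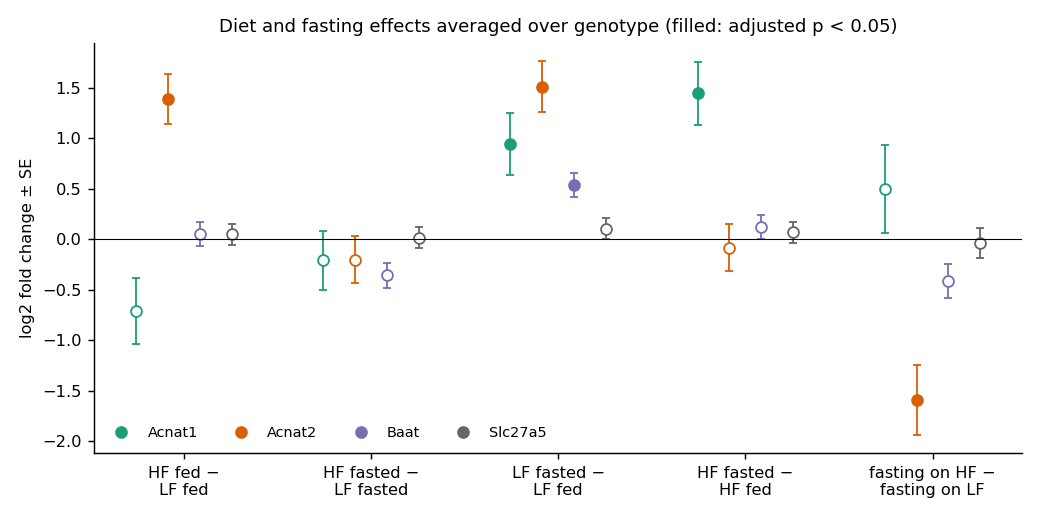
Log2 fold changes ± SE (y axis) of the 4 genes for diet in fed and in fasted mice, fasting on LF and on HF, and the difference between the fasting effects (x axis), averaged over genotype in 30 mice; filled points passed an edgeR adjusted p of 0.05. Acnat2 is filled for diet in fed mice (1.39), fasting on LF (1.51) and the difference (-1.59), Acnat1 for fasting on LF (0.94) and HF (1.44), Baat for fasting on LF (0.53) and Slc27a5 for none.

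The paralogs therefore differed in which comparisons were called, and the ratio of their counts within each library, which needs no library scaling, was compared next. The mean log2 ratio of Acnat1 to Acnat2 (0.5 added to each count) was -1.06 ± 1.03 (SD) in the 7 LF fed mice, -1.86 ± 1.45 in the 8 LF fasted mice, -3.17 ± 1.003 in the 8 HF fed mice and -1.60 ± 0.29 in the 7 HF fasted mice. The difference was -2.11 for HF fed minus LF fed mice (two-sided exact permutation test, p = 0.00218, 0.00435 adjusted over 4 comparisons) and 1.57 for HF fasted minus HF fed mice (exact permutation p = 0.00186, adjusted 0.00435). Both use the HF fed values of Acnat2 by which the gene was picked, with a mean ratio of -3.69 in WT and -2.64 in KO. The genotypes were pooled and not equally mixed in the groups compared. These p-values are therefore not separate from the choice of the gene. Fasting on LF (-0.80, exact permutation p = 0.272, adjusted 0.363) and diet in fasted mice (0.26, exact permutation p = 0.929, adjusted 0.929) gave no detectable shift. The ranges overlapped in all 4 comparisons.

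By lane the genotypes were not balanced. On lane 7 the 2 LF fed mice were both KO, while the HF fed mice were 3 WT and 2 KO, so that this lane gives no diet comparison free of the KO to WT contrast that picked Acnat2. On lane 8 the LF fed mice were 3 WT and 2 KO and the HF fed mice 1 WT and 2 KO, and the difference of HF fed minus LF fed was -1.82 (exact permutation p = 0.0714). For HF fasted minus HF fed it was 1.75 on lane 7 (exact permutation p = 0.0635) and 1.23 on lane 8 (exact permutation p = 0.1), where the fasted mice were 2 WT and 2 KO on lane 7 and 2 WT and 1 KO on lane 8. With 3 mice against 3 on lane 8, 0.1 is the smallest p this permutation test can give. By group, the counts of Acnat2 were on geometric average 12.9 times those of Acnat1 in WT HF fed mice, 6.25 times in KO HF fed mice, 2.46 times in WT LF fed mice and 1.85 times in KO LF fed mice, and 2.84 to 4.37 times in the fasted groups.

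**Figure D4:**
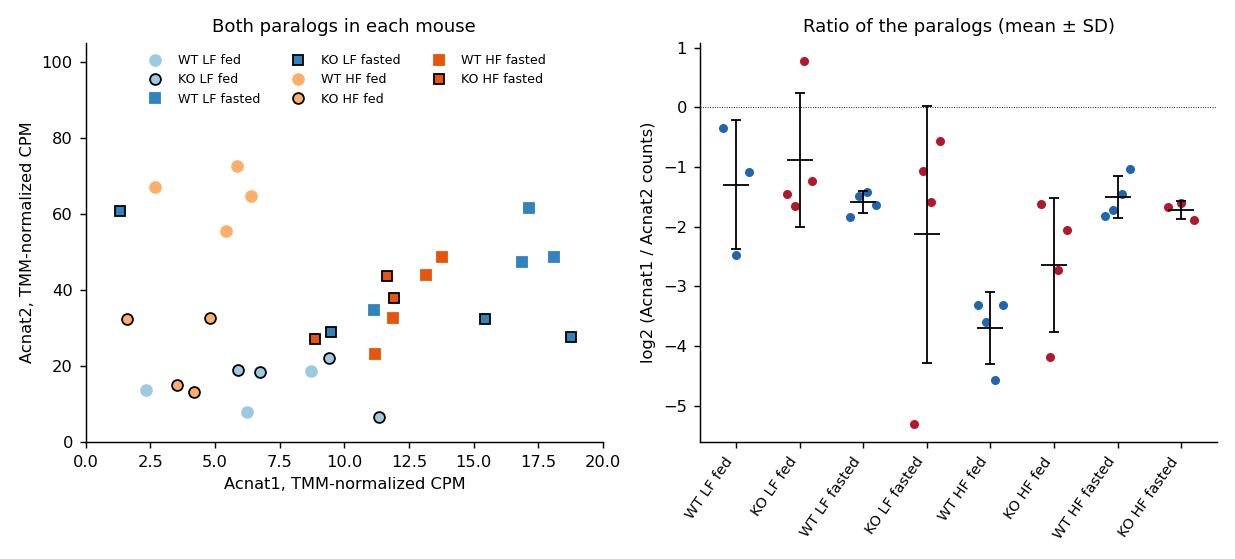
Left, Acnat2 against Acnat1 in each of the 30 mice (both in TMM-normalized CPM; circles fed, squares fasted, blue LF, orange HF, black outline KO). Right, log2 of Acnat1 over Acnat2 counts per mouse with the mean ± SD of each group; the WT HF fed mice lie lowest on average (-3.69) and KO LF fasted replicate 1 has the lowest single value (-5.31).

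Within groups, mice with more Acnat1 did not detectably have more Acnat2. After each group's mean was subtracted, the log2 levels of the paralogs correlated with r = -0.323 (permutation p = 0.152, 0.455 adjusted over the 6 pairs of members) and rho = -0.199 (permutation p = 0.374, adjusted 0.748) over the 30 mice, and with r = -0.144 without the 2 mice farthest from the median of Acnat1. By lane, r was -0.707 over 16 mice on lane 7 (permutation p = 0.137) and 0.125 over 11 mice on lane 8 (permutation p = 0.792). KO LF fasted replicate 1, with the lowest Acnat1 level (1.32 CPM), had 60.9 CPM of Acnat2, 230 CPM of Baat and 609 CPM of Slc27a5; a list of 6 liver macrophage genes summed to 507 CPM in it, against 193 to 564 CPM over the 30 mice, and the part of this in its levels was not tested. Acnat1 and Baat correlated with r = 0.579 (permutation p = 0.0695, adjusted 0.417), 0.796 on lane 7 and -0.641 on lane 8. The other 4 pairs of members had r between -0.0574 and 0.120.

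Baat, the bile acid transferase, rose with fasting on LF, and no change was detectable on HF. Its level was 221, 230 and 213 CPM in WT LF fed mice and 231, 258, 244 and 256 CPM in KO LF fed mice, and after fasting 366, 312, 298 and 344 CPM in WT and 230, 486, 331 and 340 CPM in KO. All but KO LF fasted replicate 1 of the fasted mice lay above all fed mice. The rise was 1.45-fold (log2 fold change 0.53 ± 0.12, edgeR adjusted p = 0.00107). It was 0.49 ± 0.13 within lane 8, which held 1 KO LF fasted mouse, and 0.62 ± 0.31 with all 32 mice (edgeR adjusted p = 0.196 with all 32). On HF the level was 204 to 307 CPM in WT fed mice (median 260), 197 to 264 CPM in KO fed mice (median 226), 226 to 290 CPM in WT fasted mice (median 262) and 240, 264 and 301 CPM in the KO fasted mice. The fasting effect on HF was 0.12 ± 0.12 (edgeR adjusted p = 0.799) and differed from that on LF by -0.41 ± 0.17 (edgeR adjusted p = 0.248). The fasted mice on HF had less Baat than those on LF by a log2 fold change of -0.36 ± 0.12, which missed the threshold (edgeR adjusted p = 0.0690) but passed it in DESeq2 (-0.36 ± 0.12, adjusted p = 0.0358) and without KO LF fasted replicate 1 (-0.43, edgeR adjusted p = 0.00758). In fed mice diet gave 0.05 ± 0.12 (edgeR adjusted p = 0.960). The group means of Baat ran from 221 ± 8.75 CPM (SD) in WT LF fed mice over 228 ± 27.8 in KO HF fed, 247 ± 12.5 in KO LF fed, 258 ± 44.2 in WT HF fed, 260 ± 28.7 in WT HF fasted, 268 ± 30.6 in KO HF fasted and 330 ± 30.8 in WT LF fasted to 347 ± 106 in KO LF fasted mice. Neighbours in this order overlapped.

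Slc27a5, the bile acid-CoA ligase, had no detectable response to diet or fasting. Its group means ran from 499 ± 45.7 CPM (SD) in WT LF fed mice to 576 ± 53.8 CPM in KO LF fasted mice, and all neighbouring groups overlapped. The log2 fold changes were 0.05 ± 0.11 and 0.02 ± 0.11 for diet in fed and fasted mice and 0.10 ± 0.11 and 0.07 ± 0.11 for fasting on LF and HF, with edgeR adjusted p-values from 0.558 to 0.961.

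Loss of MCAD changed none of the 4 genes detectably in the 3 conditions that had not been used to pick them. KO over WT gave log2 fold changes in LF fed mice of 0.53 ± 0.45 for Acnat1, 0.32 ± 0.37 for Acnat2, 0.16 ± 0.11 for Baat and 0.12 ± 0.12 for Slc27a5. In LF fasted mice they were -0.45 ± 0.49, -0.36 ± 0.28, 0.07 ± 0.23 and 0.09 ± 0.19, and in HF fasted mice -0.21 ± 0.26, -0.04 ± 0.25, 0.04 ± 0.17 and -0.03 ± 0.17, in the same order. All edgeR adjusted p-values were 0.936 or above, 0 of the 12 values had an unadjusted p below 0.05, and neither DESeq2 nor limma voom called one. Few genes of any kind passed in these comparisons, 0.0193% of 10366 genes in LF fed, 0.0104% of 9639 in LF fasted and 0.0096% of 10413 in HF fasted mice.

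Genes of neighbouring steps were read from fixed lists, in the same edgeR tests. Of 10 genes of peroxisomal beta-oxidation and acyl transfer, which shorten long and branched acyl-CoAs and move them across the membrane, 9 rose and 0 fell with fasting on LF (median log2 fold change 1.65, with a median of all genes near 0) and 7 rose and 0 fell on HF (median 0.87). Of all genes tested, 10% rose and 9.41% fell on LF, and 1.43% rose and 1.19% fell on HF. On LF, Acaa1a (a peroxisomal thiolase) rose by 1.73 ± 0.18, Slc27a2 (a very long-chain acyl-CoA synthetase) by 1.27 ± 0.15 and Crat (carnitine acetyltransferase) by 2.66 ± 0.28. Crat, Acaa1a and Pex11a (a peroxisome division factor) rose less on HF than on LF, with differences of -1.65 ± 0.38, -0.89 ± 0.24 and -1.40 ± 0.36 (edgeR adjusted p = 0.0156, 0.0379 and 0.0384). With HF diet in fed mice, where Acnat2 was higher, 0 of the 10 passed, in a comparison in which 0.268% of all genes did. At an unadjusted edgeR p below 0.05 there were 7 of the 10 (median 0.55), against 1070 of all 11566 genes.

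Acyl-CoA thioesterases and CoA diphosphatases release or degrade CoA. Of 10 such genes 9 were tested. With fasting on LF 6 rose and 1 fell (median 1.66), against 10% and 9.41% of all genes. On HF 5 rose and 1 fell (median 0.66), against 1.43% and 1.19% of all genes. The one that fell was Nudt7, a peroxisomal CoA diphosphatase, with log2 fold changes of -2.81 ± 0.14 on LF and -0.95 ± 0.14 on HF. Acot12 (an acetyl-CoA thioesterase) rose by 1.66 ± 0.13 on LF and Acot1 (a long-chain thioesterase) by 4.74 ± 0.40, although Acot1 has close paralogs with which it may share reads. For diet in fed mice 0 of the 9 passed at an adjusted p below 0.05 (5 at an unadjusted p below 0.05, against 1070 of all 11566 genes).

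Of 12 genes of bile acid synthesis, 4 rose and 3 fell with fasting on LF (10% and 9.41% of all genes) and 1 rose on HF (1.43% of all genes). On LF, Akr1c6, a reductase, changed by -1.77 ± 0.16, while Cyp8b1, the sterol 12-hydroxylase, rose by 1.81 ± 0.19 and Acox2, the oxidase that starts side chain shortening, by 0.85 ± 0.10. Cyp8b1 was the one that rose on HF (0.81 ± 0.18, edgeR adjusted p = 0.00806). In fasted mice 3 of the 12 were higher on HF and 1 lower (3.75% and 2.9% of all genes). In fed mice 0 passed (3 at an unadjusted p below 0.05, against 1070 of all 11566 genes). Of 11 genes of bile acid transport and its regulators, 1 was higher on HF in fed mice: Abcc3, an exporter of the basolateral membrane, by 1.20 ± 0.15 (edgeR adjusted p = 2.09e-05). In that comparison 0.268% of all genes passed. With fasting on LF 3 of the 11 rose and 4 fell (10% and 9.41% of all genes). Those with the smallest p were Abcb11, the bile salt export pump (-1.37 ± 0.11), Slco1a1, an uptake carrier (-1.13 ± 0.15), and Abcc3, which rose (0.97 ± 0.15). On HF Abcb11 alone passed (-0.64 ± 0.11, edgeR adjusted p = 0.000424), where 1.19% of all genes fell.

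Taurine, the amino acid that Baat and Acnat1 use, is made from cysteine by Cdo1 and Csad. Of 5 genes of taurine supply and N-acyl taurine breakdown, 2 rose and 1 fell with fasting on LF (10% and 9.41% of all genes). Csad rose by 1.44 ± 0.24, Cdo1 by 0.50 ± 0.12, and Slc6a6, the taurine transporter, changed by -0.81 ± 0.18. On HF 0 passed (1 at an unadjusted p below 0.05, against 1379 of all 11566 genes). Csad differed between the fasting effects on HF and LF by -1.27 ± 0.33 (edgeR adjusted p = 0.0361) and was lower on HF in fasted mice (log2 fold change -1.68 ± 0.24, edgeR adjusted p = 6.29e-05), as was Cdo1 (-0.44 ± 0.12, edgeR adjusted p = 0.0187). Faah, which breaks down N-acyl taurines, had log2 fold changes between -0.02 and 0.16 in the 4 diet and fasting comparisons. In diet in fed mice 0 of the 5 passed (0 at an unadjusted p below 0.05). Across the 5 lists 0 genes passed in the KO to WT comparisons. At an unadjusted edgeR p below 0.05 there were at most 3 per list and condition. The 3 were of the 10 genes of peroxisomal beta-oxidation and acyl transfer, in LF fed mice. Over all genes there were 582 of 10366 in LF fed, 220 of 9639 in LF fasted and 384 of 10413 in HF fasted mice.

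As a description of shape, the genes whose log2 levels followed each member most closely over the 30 mice were sought among 11565 others. For Acnat1 they were Acad11 (Pearson r = 0.770), Epha2 (0.765), Slc25a22 (0.764), Inafm2 (0.755) and Man2a1 (0.741). For Acnat2 they were Cyp2c38 (0.795), Ube2e2 (0.703), Bckdhb (0.681), Ces1b (0.657) and Nnt (0.650). Baat was followed by Ahcy (0.853), Tdo2 (0.835), Tedc2 (0.829), Gfra1 (0.820) and Asl (0.816), and Slc27a5 by Bap1 (0.657), Strn (0.628), Mbtps2 (0.603), Vps37a (0.594) and E130102H24Rik (0.589). No gene stood in the list of more than 1 member. These values share the libraries and the grouping of the mice and carry no test.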

How the data were processed

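RNA of 32 samples labelled liver was counted, and 30 of them entered the main tests. Per the study's methods, libraries were primed at the 3′ end and read singly over 50 bases; the authors mapped the reads to GRCm38 with HISAT 0.1.5, sorted them with SAMtools 1.2 and counted them with HTSeq 0.6.1p1 in union mode. The deposited values are raw counts per Ensembl gene, without normalization.

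Symbols and positions came from GENCODE vM21. The members, gene lists and tests were chosen with earlier results of these data known; the lists and the rule for naming genes (the members, the 5 genes most correlated with each, and per list the counts and the genes with the smallest p) were then held fixed. Genes passing filterByExpr were tested in edgeR 4.0.16 (R 4.3.3) with TMM factors and the robust quasi-likelihood test, with Benjamini-Hochberg adjustment: one model of 8 groups over 30 mice for diet and fasting, and one fit per condition for KO against WT. Log2 CPM for correlations used a prior count of 2. Permutation tests of single values used SciPy 1.17.1, exact for the ratios and with 100000 draws for correlations. Coding sequences were aligned with MAFFT 7.526. The edgeR fit was tested on simulated counts.

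With 3 to 60 counts, Acnat1 is the least precise member; Acnat2 had 19 to 225, Baat 521 to 1888 and Slc27a5 1102 to 2507 counts per mouse. No 2 mice of a group agreed within sampling noise (48 pairs, smallest chi-square per gene 3.93). Nothing beyond the labels says that the mice were processed independently, so p-values measure the spread between these samples. Alternatives were all 32 mice, 31 mice, RLE factors, other count filters, DESeq2 1.42.0, limma 3.58.1 voom, libraries with acinar or adrenal genes left out (chosen after seeing the data), lane as a term or each lane alone, a replicate block, and each mouse left out.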

Additional observations from a re-analysis of the deposited data

Results flagged for a closer look

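Within the KO LF fasted group, replicate 1 stood apart in Acnat2: it had 60.9 CPM, while the other 3 mice had 27.8 to 32.4 CPM, a gap of 0.859 of the group's range. This was the only one of 24 groups of 4 values in which a mouse lay that far out; about 1 in 20 groups would be expected to by chance. The same mouse had the lowest Acnat1 level of the 30 mice (1.32 CPM, 3 counts), so its paralogs lay at opposite ends. Without it, the rise of Acnat2 with fasting on LF kept its call.

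The fasting effect on Acnat2 differed between the diets by -1.59 on the log2 scale (edgeR's quasi-likelihood test, adjusted p = 0.00899): the gene rose on LF and gave -0.08 ± 0.23 on HF. The HF side averages WT mice, in which the mean in fasted over fed mice was 0.571 with no overlap, and KO mice, in which it was 1.55 with overlap; that difference between genotypes contains the contrast that picked the gene and was not tested.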

How the results depend on the processing

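Results kept their direction and their side of the threshold in 468 of 536 checks over settings other than leaving out a mouse. With RLE factors, no count filter and lane as a term, no call of a member changed; with at least 10 counts in every mouse none changed among the members tested, Acnat1 being removed by that filter from every comparison but KO to WT in HF fasted mice. Limits are the few counts of Acnat1, the 2 left-out libraries and the small lanes; the causes of the changes below were not tested.

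With all 32 mice, the heart-like library included, calls were lost for Acnat2 (diet in fed mice 1.37, adjusted p = 0.394; difference between diets -1.78, 0.180), Acnat1 (fasting on LF 1.03, 0.0969; on HF 1.24, 0.204) and Baat (fasting on LF 0.62, 0.196), and signs turned for Slc27a5 (diet in fasted mice -0.19; fasting on HF -0.13) and Baat (fasting on HF -0.0757; KO to WT in HF fasted mice -0.35). Correlations became 0.557 (Acnat1 and Acnat2), 0.724 (Acnat1 and Slc27a5), 0.845 (Acnat2 and Baat), 0.844 (Acnat2 and Slc27a5), 0.812 (Acnat1 and Baat) and 0.959 (Baat and Slc27a5). With 31 mice, only WT LF fed replicate 2 added, no call of a member changed.

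DESeq2 called Baat for diet in fasted mice (-0.36, adjusted p = 0.0358) and limma voom did not call Acnat1 for fasting on LF (0.81, 0.0950). Without the libraries that held acinar pancreas genes, chosen after seeing the data, Acnat2 in KO over WT HF fasted mice turned to 0.0575. Without the 4 libraries with adrenal genes, also chosen then, Acnat1 lost its call for fasting on LF (0.76, 0.126) and no other call of a member changed.

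Lane 7 held no WT LF fed mouse, so that edgeR comparisons with LF fed mice were not run there. On lane 7, Acnat1 lost its call for fasting on HF (1.67), and signs turned for Acnat2 (fasting on HF 0.0179), Baat (KO to WT in HF fasted mice -0.0713) and the correlation of Acnat2 and Slc27a5 (0.128). On lane 8, Acnat2 lost its calls (diet in fed mice 1.50, fasting on LF 1.28, difference between diets -1.45), as did Acnat1 for fasting on HF (1.16). Signs turned for Slc27a5 (diet in fed mice -0.000497, in fasted mice -0.0295, fasting on LF -0.0298, on HF -0.0588), Acnat2 (diet in fasted mice 0.0518), Baat (fasting on HF -0.0594) and the correlations of Acnat1 with Acnat2 (0.125) and Baat (-0.641). There, KO to WT, with 1 KO and 2 WT mice each, turned in LF fasted (Slc27a5 -0.10, Acnat1 0.38) and HF fasted mice (Acnat2 0.63, Acnat1 0.0120).

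The replicate numbers do not pair the mice: deviations from the group means correlated with a median of 0.00603 over 98 same-numbered pairs and -0.00207 over 295 others. With the replicate block, no member gained or lost a call; Baat (-0.0226) and Slc27a5 (0.00519) changed sign for KO to WT in HF fasted mice, and 9 genes were called for KO to WT in LF fed mice in place of 2.

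Over all genes, the number called moved from 31 for diet in fed mice to 2 (all 32 mice), 96 (DESeq2), 88 (lane 8) and 18 (31 mice); from 769 for diet in fasted mice to 293 (all 32), 241 (lane 7) and 266 (lane 8); from 303 for fasting on HF to 123 (all 32) and 0 (lane 7); and from 285 for the difference between diets to 22 (all 32), 430 (DESeq2), 121 (lane 8), 156 (no acinar libraries) and 152 (31 mice). For KO to WT it moved from 2 in LF fed mice to 39 (no filter) and 1 (all 32, 31 mice, at least 10 counts, voom, one model of 8 groups), from 1 in LF fasted mice to 4 (no filter), and from 1 in HF fasted mice to 18 (no filter), 2 (DESeq2) and 3 (lane term).

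Leaving out each mouse in turn gave -0.43 to -0.25 for Baat and -0.0265 to 0.0583 for Slc27a5 (diet in fasted mice), 0.76 to 1.13 for Acnat1 (fasting on LF), -0.179 to 0.0258 for Acnat2 (fasting on HF), -0.0754 to 0.00856 for Slc27a5 (difference between diets), and, for KO to WT in HF fasted mice, -0.20 to 0.13 for Acnat2, -0.0465 to 0.118 for Baat and -0.109 to 0.0520 for Slc27a5, and in LF fasted mice -0.14 to 0.23 for Baat. The ratio of the paralogs for diet in fasted mice ranged from -0.23 to 0.45. Calls changed for Acnat1 (fasting on LF, lost) and Baat (diet in fasted mice, gained), as described above. The 3 Acnat2 calls stayed. The number of genes called ranged from 13 to 55 for diet in fed mice (13 without WT LF fed replicate 3, 18 without KO HF fed replicate 3, 55 without KO LF fasted replicate 1), from 181 to 383 for fasting on HF (181 and 201 without KO HF fasted replicates 2 and 3), from 170 to 333 for the difference between diets (170 without WT LF fed replicate 3, 178 without KO HF fasted replicate 1) and from 1 to 7 for KO to WT in LF fed mice (1 without WT LF fed replicate 1 or 4, 5 without WT LF fed replicate 3, 7 without KO LF fed replicate 3).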
